A study of Mus musculus with 10 samples.

Results

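The genes described here encode receptors of the epidermal growth factor (EGF) family, their ligands and an intracellular inhibitor, in pancreas tissue of mice that differed in the insulin receptor gene Insr. They were chosen by symbol from a table of gene counts and make up 10 of its 24421 genes: the receptors Egfr, Erbb2 and Erbb3, the ligands Areg, Ereg, Tgfa, Hbegf, Btc and Egf, and the inhibitor Errfi1. All 10 were in the table and 9 had enough counts to be tested, the exception being Ereg. RNA came from a piece of the pancreas tail of 12-week-old female mice, with 1 library per mouse and 10 libraries. Every mouse carried Ptf1aCreER, an inducible Cre recombinase under the control of Ptf1a, which among cells of the adult pancreas is active in the enzyme-making acinar cells, and the nuclear reporter nTnG. A further part of the genotype, shared by all groups, is not reported here. The groups were Insr w/w (WT, 3 libraries), Insr w/f (Het, 3 libraries) and Insr f/f (KO, 4 libraries), where f is a floxed allele, with a segment that Cre can remove. Since Cre acts in acinar cells, the other cells of the piece keep Insr in all groups. The labels count 4 WT mice, of which 1 was not analysed here. Libraries are named by group and mouse number, as in WT-2404.

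ERBB receptors are tyrosine kinases that pair up when a ligand binds, phosphorylate each other and signal through the RAS-ERK and PI3K-AKT pathways. Their ligands are made as membrane proteins and released by proteases such as ADAM17, and the induced protein ERRFI1 (also called MIG6) binds active receptors and blocks them. In the pancreas the ligand TGF-alpha and EGFR are known for their part in the change of acinar cells into duct-like cells, and Egf itself is made in large amounts by some secretory glands.

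Promoters of Erbb3, Ereg and Hbegf were not examined here. For the other 7 of the 10 genes, promoter sequence was taken from RefSeq (build GRCm38.p6, 250 bases before to 50 after the start of transcription). Those windows were searched on both strands for 3 motifs that do not overlap one another: the cAMP response element TGACGTCA (CRE), the AP-1 site TGANTCA and the TATA box TATAAA. Over 32851 promoters of the same length, 1.79% held the CRE, 7.81% the AP-1 site and 13.6% the TATA box. Areg and 1 of the 2 starts of Errfi1, both known as genes that growth factor and cAMP signals induce quickly, each held a CRE and a TATA box. No match to any of the 3 motifs was found in the windows of Egfr, Erbb2, Tgfa, Btc and Egf, or at the other start of Errfi1. The 250 bases before the start are shown 5′ to 3′ for Areg and Errfi1, as the pair with these motifs, and for Egfr and Btc, as the receptor and the ligand whose KO against WT tests had the smallest p-values among the 9 genes. They lie at chr5:91139349-91139598 (plus strand), chr4:150854820-150855069 (plus strand), chr11:16751953-16752202 (plus strand) and chr5:91402995-91403244 (minus strand). Capitals mark the CRE and then the TATA box. In Areg the CRE began 61 bases and the TATA box 31 bases before the start, and in Errfi1 51 and 28 bases before it. A match is a description of these letters and no evidence that a factor binds there.
Areg: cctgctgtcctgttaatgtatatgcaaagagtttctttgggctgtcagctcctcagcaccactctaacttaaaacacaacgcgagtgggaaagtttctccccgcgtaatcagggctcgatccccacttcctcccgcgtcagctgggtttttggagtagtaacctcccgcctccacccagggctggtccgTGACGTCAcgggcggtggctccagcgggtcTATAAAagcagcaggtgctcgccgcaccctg
Errfi1: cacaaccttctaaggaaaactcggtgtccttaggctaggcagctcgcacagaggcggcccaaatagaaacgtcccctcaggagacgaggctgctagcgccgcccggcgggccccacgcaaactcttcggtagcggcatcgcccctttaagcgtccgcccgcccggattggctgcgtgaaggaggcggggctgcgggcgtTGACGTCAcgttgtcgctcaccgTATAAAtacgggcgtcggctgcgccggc
Egfr: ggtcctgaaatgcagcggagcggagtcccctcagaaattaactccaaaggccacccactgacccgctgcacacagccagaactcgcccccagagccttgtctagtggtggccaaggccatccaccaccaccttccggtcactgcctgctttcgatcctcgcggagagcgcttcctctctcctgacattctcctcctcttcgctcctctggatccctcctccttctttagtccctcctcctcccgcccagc
Btc: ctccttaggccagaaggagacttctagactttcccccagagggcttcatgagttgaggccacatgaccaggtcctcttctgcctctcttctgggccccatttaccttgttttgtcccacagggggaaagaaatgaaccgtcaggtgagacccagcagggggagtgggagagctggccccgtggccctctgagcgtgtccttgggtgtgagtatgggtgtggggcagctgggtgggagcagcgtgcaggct

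Gene counts per library ranged from 11718559 to 19024351. Values are counts-per-million of the library size scaled by TMM factors (CPM), given as mean ± SD over the mice of a group. These factors ran from 0.596 in KO-2126 to 3.53 in WT-2404, with WT-1860 at 1.56 and WT-2067 at 0.878. Levels and fold changes rest on this wide scaling, and results with library size alone are in the closing section. A count of 3, the limit that a count of 0 allows, stood at 0.0501 to 0.395 CPM. Insr itself had 253 to 1259 counts, at 29.8 ± 9.88 CPM in WT (n = 3), 38.5 ± 8.92 CPM in Het (n = 3) and 31.5 ± 5.95 CPM in KO libraries (n = 4). Between KO and WT its log2 fold change was 0.09 (SE 0.26, adjusted p = 0.864 in edgeR), so that gene counts of the whole piece did not separate the labelled groups. Gene counts do not tell the floxed segment from the rest of Insr. WT-2404 stood apart from the rest: 12 acinar enzyme genes took 11.9% of its gene counts, against 43.9% and 54.7% in the other WT libraries, 54.2% to 58.8% in Het and 47.5% to 60.1% in KO libraries. WT libraries averaged 36.9% ± 22.3 (SD, n = 3) and KO libraries 55.6% ± 5.94 (SD, n = 4), and the difference of 18.8 percentage points had a two-sided exact permutation p of 0.0857, where the smallest possible is 0.0286. The tissue label thus held for acinar markers in all 10 libraries, with the smallest share in WT-2404 and the amylase gene Amy2a5, which has near-identical copies, at 0 in some libraries. Where an unadjusted p under 0.05 in edgeR for a family gene or a named pathway gene depended on WT-2404, the value without it is given. Medians of the marker lists and counts and medians of the pathway list were not computed without it.

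Among the receptors, Egfr was lower in libraries with floxed Insr alleles, Erbb2 was less clearly so, and Erbb3 was at a like level in all groups. EGFR binds EGF, TGF-alpha and amphiregulin and is the receptor that gives the family its name. Its gene (chr11:16752203-16918158, plus strand) had its highest level in WT-2404 (23.0 CPM), followed by WT-1860 (16.6 CPM) and WT-2067 (13.5 CPM). It stood at 8.07, 10.4 and 10.4 CPM in the Het libraries and at 12.5, 5.27, 7.83 and 8.48 CPM in KO-2079, KO-2070, KO-2124 and KO-2126. Every WT library was thus above every Het and KO library, and the KO library nearest to WT was KO-2079. Group means were 17.7 ± 4.83 CPM in WT (n = 3), 9.62 ± 1.35 in Het (n = 3) and 8.53 ± 3.01 in KO libraries (n = 4). Between KO and WT the log2 fold change was -1.04 (SE 0.27, 95% interval -1.62 to -0.46), a level 2.06-fold lower, with an unadjusted p of 0.00195 and an edgeR adjusted p of 0.116 that misses 0.05. Het against WT gave -0.88 (SE 0.29, unadjusted p = 0.00972, edgeR adjusted p = 0.183). Without WT-2404 the KO against WT value was -0.80, with an unadjusted p of 0.0152 and an adjusted p of 0.505 in edgeR.

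ERBB2 binds no ligand of its own and serves as the preferred partner of the other receptors. Erbb2 (chr11:98412470-98437716, plus strand) was at 17.0, 12.2 and 9.55 CPM in WT-2404, WT-1860 and WT-2067. The Het libraries were at 7.63, 10.2 and 9.94 CPM and the KO libraries at 12.1, 10.01, 9.17 and 7.88 CPM, so both ranges overlapped that of WT. The log2 fold change was -0.40 (SE 0.23, 95% interval -0.90 to 0.09) between KO and WT and -0.49 (SE 0.24) between Het and WT, with edgeR adjusted p-values of 0.288 and 0.277. Without WT-2404 the KO against WT value was -0.15, so much of the difference in means came from that library. ERBB3 has little kinase activity, binds neuregulins and couples strongly to PI3K. Erbb3 (chr10:128567523-128589652, minus strand) was at 17.4, 12.6 and 11.6 CPM in WT, 16.2, 15.8 and 10.6 CPM in Het and 20.5, 12.4, 12.0 and 11.4 CPM in KO libraries. Both the lowest and the highest of these values lay outside WT, and the groups overlapped throughout. KO against WT gave a log2 fold change of 0.02 (SE 0.25, edgeR adjusted p = 0.973), with a 95% interval of -0.52 to 0.56 that leaves room for modest differences either way. Its sign turned under other scalings and without single libraries, as given in the closing section.

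Among the ligands, Btc, Areg and Hbegf were lower in KO than in WT libraries without overlap, and Tgfa was close to level. Betacellulin, the product of Btc, was first isolated from a pancreatic beta cell tumour line and binds EGFR and ERBB4. Btc (chr5:91357261-91402994, minus strand) stood at 5.68, 5.58 and 4.59 CPM in WT-2404, WT-1860 and WT-2067. The Het libraries were at 2.28, 1.68 and 4.11 CPM, and the KO libraries at 2.90, 1.19, 1.57 and 1.01 CPM. The WT libraries lay close together and above all the others, with Het-2042 the nearest. Means were 5.28 ± 0.599 CPM in WT (n = 3), 2.69 ± 1.27 in Het (n = 3) and 1.67 ± 0.858 in KO libraries (n = 4). In KO against WT the log2 fold change was -1.62 (SE 0.39, 95% interval -2.48 to -0.77), a level 3.08-fold lower, with an unadjusted p of 0.00127 and an edgeR adjusted p of 0.116. Het against WT gave -0.96 (SE 0.42, unadjusted p = 0.0397, edgeR adjusted p = 0.232). Without WT-2404 its KO against WT value was -1.55, with an unadjusted p of 0.00465 and an adjusted p of 0.504 in edgeR.

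Amphiregulin, encoded by Areg, is a low-affinity ligand of EGFR made by epithelial cells and by some immune cells. Areg (chr5:91139599-91148432, plus strand) was read 202, 68 and 36 times in WT-2404, WT-1860 and WT-2067, which is 3.37, 3.72 and 2.20 CPM. The Het libraries held 3, 26 and 22 counts (0.263, 2.42 and 1.35 CPM), and the KO libraries 16, 0, 31 and 4 counts (0.989, 0, 1.43 and 0.404 CPM). KO and WT did not overlap, while Het-1770 reached into the WT range. KO-2070 had no count, which allows up to 0.395 CPM. Between KO and WT the log2 fold change was -1.98 (SE 0.73, 95% interval -3.56 to -0.40), a level 3.94-fold lower, with an unadjusted p of 0.0185 and an edgeR adjusted p of 0.146. Het against WT gave -1.21 (SE 0.77, edgeR adjusted p = 0.376), and this value moved from -0.73 without Het-2066 to -1.88 without Het-1770. Epiregulin, the product of Ereg, is a ligand of EGFR and ERBB4. Ereg (chr5:91074622-91093646, plus strand) had 63 counts over all libraries, of which 41 were in WT-2404, 5 and 3 in the other WT libraries, 2, 0 and 1 in Het and 3, 0, 8 and 0 in KO libraries. It was not tested, and 8 of 10 libraries held 5 counts or fewer. It overlaps the antisense gene Gm19610 by 141 exon bases, and the use of strand in counting is not given in the sources used here.

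Heparin-binding EGF-like growth factor, encoded by Hbegf, binds EGFR and ERBB4. Hbegf (chr18:36504927-36515805, minus strand) stood at 7.23, 5.14 and 4.35 CPM in WT-2404, WT-1860 and WT-2067. The Het libraries were at 1.05, 2.14 and 3.19 CPM and the KO libraries at 4.08, 2.24, 2.26 and 2.22 CPM. All WT libraries were above all others, though KO-2079 came close to the lowest of them. KO against WT gave a log2 fold change of -1.04 (SE 0.37, unadjusted p = 0.0150, edgeR adjusted p = 0.138) and Het against WT -1.38 (SE 0.41, unadjusted p = 0.00522, edgeR adjusted p = 0.183). Without WT-2404 these were -0.79 (unadjusted p = 0.0821) and -1.11 (unadjusted p = 0.0286) in edgeR. TGF-alpha, encoded by Tgfa, is the ligand whose excess drives acinar cells towards duct-like cells in mouse models. Tgfa (chr6:86195223-86275719, plus strand) was at 8.55, 9.02 and 7.96 CPM in WT, 6.93, 10.9 and 8.28 CPM in Het and 7.42, 10.1, 6.50 and 9.09 CPM in KO libraries. The WT values lay inside the range of the others. KO against WT gave -0.05 (SE 0.22, edgeR adjusted p = 0.904), with a 95% interval of -0.52 to 0.42.

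Egf had a different pattern, with a wide range within WT and its lowest level in the library with the smallest share of acinar transcripts. Egf (chr3:129677565-129755316, minus strand) encodes the precursor of EGF. WT-2404 held 2.57 CPM, WT-1860 18.0 CPM and WT-2067 47.8 CPM, so the highest WT value was 18.6-fold the lowest. The Het libraries were at 38.8, 56.9 and 41.6 CPM and the KO libraries at 31.1, 57.3, 16.7 and 71.0 CPM. WT-2067, the WT library with the largest acinar share, was thus within the Het and KO ranges. Its difference between KO and WT was 0.96 on the log2 scale (SE 0.76, edgeR adjusted p = 0.458), which was 2.13 without WT-2067 and 0.39 without WT-2404. With the acinar share of each library as a covariate it was -0.21 (SE 0.31). Across the 10 libraries the gene most like Egf was Prss2, which encodes a trypsinogen made by acinar cells (Pearson r = 0.996 of log2 CPM, and 0.983 without WT-2404). Reads of near-identical trypsinogen genes may be split between them, so the level of Prss2 is uncertain to that extent. Exons of Egf overlap those of Gm42697 and 6330410L21Rik, by 607 and 500 bases.

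ERRFI1 is an inhibitor that the pathway itself induces, and it also responds to stress and hormones. Errfi1 (chr4:150853919-150868892, plus strand) was at 24.3, 30.6 and 43.2 CPM in WT-2404, WT-1860 and WT-2067 and at 75.2, 36.0 and 45.8 CPM in Het-2066, Het-1770 and Het-2042. The KO libraries spread from 11.6 CPM in KO-2070 through 50.1 in KO-2124 and 58.5 in KO-2079 to 159.8 CPM in KO-2126, a 13.8-fold range. The KO group thus held both the lowest and the highest value of all libraries. Its log2 fold change between KO and WT was 1.10 (SE 0.65, edgeR adjusted p = 0.319), which was 0.30 without KO-2126 and 1.45 without KO-2070. Its level went with that of Ddit4, a stress-induced inhibitor of mTORC1 (r = 0.973 over 10 libraries, and 0.992 without WT-2404), and less closely with Mgme1 (0.931) and Pdk4 (0.930).

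**Figure D1:**
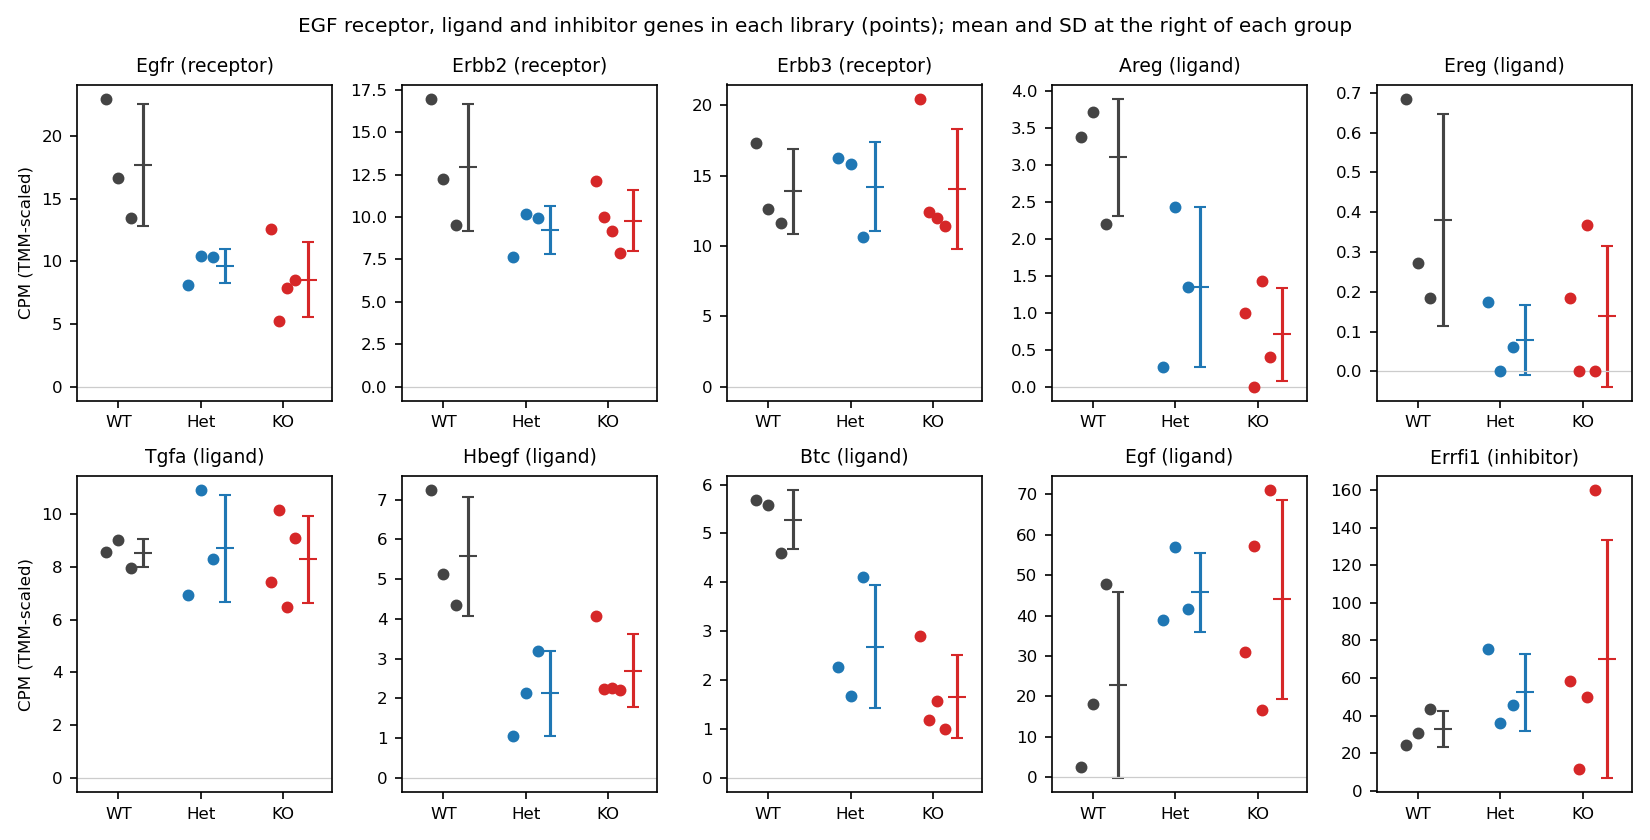
Each panel plots 1 gene's CPM (linear axis from 0) in WT, Het and KO libraries, with a point per library and the group's mean and SD at its right. WT points of Egfr, Hbegf and Btc lie above all Het and KO points, whereas Egf and Errfi1 spread widely within groups.

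Compared per length of the merged exons, the levels of the genes had another order. Merged exons of all annotated transcripts can be longer than the transcript in use, so this order is approximate. In WT libraries Errfi1 stood at 9.13 ± 2.69 CPM per kb (n = 3), above all the others. Areg followed at 2.55 ± 0.652, Erbb2 at 2.48 ± 0.720, Erbb3 at 2.31 ± 0.508 and Egf at 2.02 ± 2.04 CPM per kb. These neighbours differed by less than their spread. Egfr at 1.56 ± 0.427, Tgfa at 1.31 ± 0.0817, Btc at 1.17 ± 0.133 and Hbegf at 1.15 ± 0.308 CPM per kb came next, and Ereg was at 0.0922 ± 0.0647. The WT ranges of Egfr, Tgfa, Btc and Hbegf overlapped, though Tgfa was above Btc in each WT library. In KO libraries (n = 4) Errfi1 (19.5 ± 17.7 CPM per kb) and Egf (3.90 ± 2.18) came first, followed by Erbb3 (2.34 ± 0.712), Erbb2 (1.88 ± 0.341) and Tgfa (1.28 ± 0.252). Egfr (0.753 ± 0.266), Areg (0.581 ± 0.519), Hbegf (0.558 ± 0.190) and Btc (0.369 ± 0.190) stood below Tgfa there, and Ereg at 0.0336 ± 0.0428. The place of Egf below Areg in the WT means rested on WT-2404: Egf was at 0.228 CPM per kb there, 1.60 in WT-1860 and 4.24 in WT-2067, and Areg at 2.78, 3.06 and 1.81 CPM per kb in the same libraries.

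KO libraries were set against WT to ask what goes with 2 floxed Insr alleles in acinar cells. At an edgeR adjusted p under 0.05, 0 of the 9 tested genes were called, as were 0 of 13688 genes (0%), while the unadjusted p was under 0.05 for 3221 genes and DESeq2 called 1011. At an unadjusted p under 0.05, 4 of the 9 (Egfr, Areg, Hbegf and Btc) were lower in KO libraries, where 13.9% of all genes were, and 0 were higher, where 9.6% of all genes were. The same 4 had ranges without overlap, WT above KO, against 9.17% of all genes. In DESeq2, Egfr (-1.07, adjusted p = 0.0223) and Btc (-1.65, adjusted p = 0.0103) passed, among the 5.27% of genes called lower. Their SEs were larger in DESeq2 (0.32 and 0.43) than in edgeR (0.27 and 0.39), so the smaller p-values do not reflect a smaller estimated error. Areg and Hbegf did not pass in DESeq2, with adjusted p-values of 0.0594 and 0.0815. The calls also rested on which WT libraries were used. Without WT-2067, the WT library with the lowest level of each of these 4 genes, edgeR called Egfr (-1.19, adjusted p = 0.0246) and Btc (-1.71, adjusted p = 0.0302), with 7.42% of all genes called lower. Without WT-2404, 3 of the 9 (Egfr, Areg and Btc) were lower at an unadjusted p under 0.05, where 5.29% of all genes were, and edgeR called none after adjustment.

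In the comparison of Het with WT libraries, which asks what goes with 1 floxed allele, edgeR called 0 of the 9 genes and 0% of all genes, with 2714 of 13688 genes at an unadjusted p under 0.05 and 391 called by DESeq2. Egfr, Hbegf and Btc were lower at an unadjusted p under 0.05 (3 of 9, with 11.6% of all genes), and the same 3 had WT ranges above Het ranges (13.5% of all genes). Without WT-2404 only Hbegf of the 9 kept an unadjusted p under 0.05 (3.61% of all genes), and Egfr (-0.63, unadjusted p = 0.0596) and Btc (-0.88, unadjusted p = 0.0911) did not in edgeR. Set against WT together, the 7 Het and KO libraries gave a log2 fold change of -0.96 (SE 0.23, edgeR adjusted p = 0.0597) for Egfr, -1.21 (SE 0.32, edgeR adjusted p = 0.0619) for Hbegf and -1.29 (SE 0.34, edgeR adjusted p = 0.0619) for Btc. Here too edgeR called 0% of all genes at an adjusted p under 0.05, with 3867 genes at an unadjusted p under 0.05, while DESeq2 called 1750. At that unadjusted threshold 5 of the 9 were lower, the same 3 with Areg (-1.59, SE 0.62) and Erbb2 (-0.45, SE 0.20), against 16.5% of all genes. Ranges without overlap held for Egfr, Hbegf and Btc, against 5.84% of all genes. Egfr, Hbegf and Btc passed in DESeq2 (adjusted p = 0.0123, 0.0156 and 0.0126, with 8.5% of genes called lower) and in edgeR without WT-2067 (adjusted p = 0.0144, 0.0241 and 0.0288, with 11.1% called lower). Without WT-2404, 3 of the 9 (Egfr, Hbegf and Btc) were lower at an unadjusted p under 0.05, against 6.33% of all genes, and edgeR called none. Areg (-1.51, unadjusted p = 0.0588 in edgeR) and Erbb2 (-0.18, unadjusted p = 0.412 in edgeR) were not among them, and Erbb2 was at -0.10 with the acinar share as a covariate. All 3 comparisons share the WT libraries, so they are not independent of one another.

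Between KO and Het libraries no gene of the group separated. In that comparison edgeR called 0 of 9 and 0% of all genes, and 0.752% of all genes (103) and 0 of the 9 had an unadjusted p under 0.05. Log2 fold changes ran from -0.77 (SE 0.77) for Areg to 0.42, and the smallest p was 0.126, for Btc at -0.67 (SE 0.41). Both values moved with single libraries: Btc was at -1.08 (unadjusted p = 0.0187, edgeR adjusted p = 1.0) without KO-2079 and at -0.21 without Het-2042, and Areg ran from -1.34 without KO-2124 to -0.10 without Het-1770. Whether 2 floxed alleles differ from 1 for these genes was not detectable with 3 and 4 libraries, and DESeq2 called 0 genes in this comparison.

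**Figure D2:**
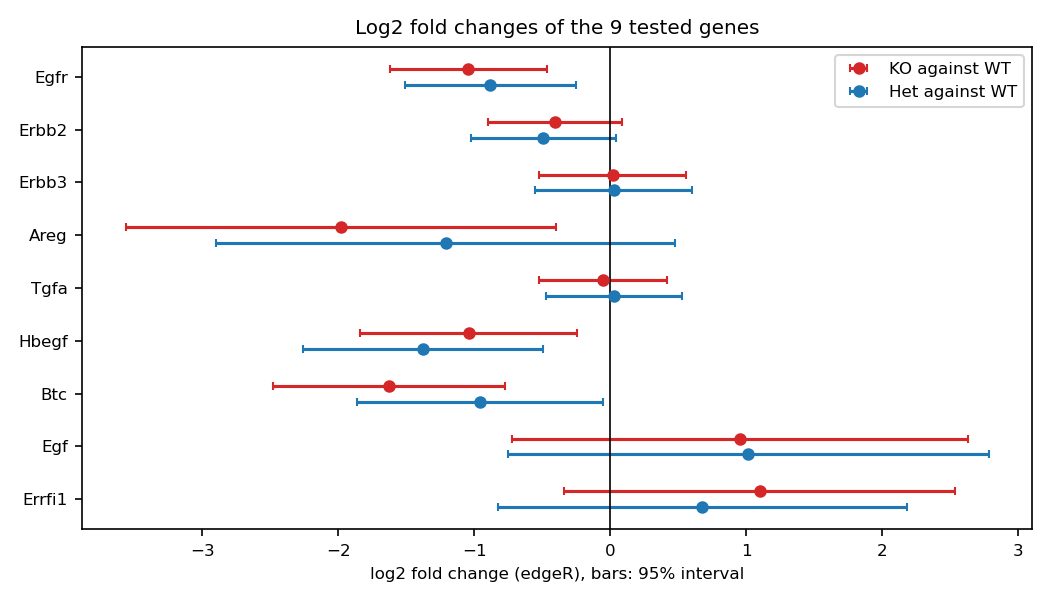
Points give the log2 fold changes of the 9 tested genes (horizontal axis), KO against WT and Het against WT in separate colours, with bars for the 95% interval from edgeR. The KO intervals of Egfr, Areg, Hbegf and Btc end below 0, at -0.46, -0.40, -0.24 and -0.77, and those of Erbb3 and Tgfa span 0.

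Some lists of cell type markers were mostly lower in KO libraries, as Egfr, Areg, Hbegf and Btc were, and other lists were mostly higher. Summed over 8 duct markers, the level was 719 to 1163 CPM in WT, 340 to 585 in Het and 348 to 579 CPM in KO libraries, with 6 of 8 markers lower in KO. For 8 macrophage markers the ranges were 264 to 1134, 139 to 221 and 89.8 to 312 CPM (8 of 8 lower), and for 7 fibroblast markers 1220 to 4324, 494 to 954 and 437 to 1097 CPM (6 of 7 lower). No marker of these 3 lists was at 0 in any library. WT-2404 held the highest sum of each. The other WT libraries, WT-1860 and WT-2067, were at 799 and 719 CPM for duct, 432 and 264 for macrophage and 1806 and 1220 CPM for fibroblast markers. Neutrophil markers were at 8.45 to 90.8 CPM in WT and 1.05 to 11.6 CPM in KO libraries (4 of 4 lower, Cxcr2 at 0 in some), and lymphoid markers at 9.14 to 25.3 and 1.41 to 14.8 CPM (5 of 5 lower, Cd3d and Ms4a1 at 0 in some). The neutrophil value of 90.8 CPM was that of WT-2404, with WT-1860 and WT-2067 at 12.1 and 8.45 CPM. Under the same TMM scaling, all 12 acinar markers had a higher fitted level in KO libraries, by a median log2 fold change of 1.29. Of these, Amy2a5 had counts in no WT library and among KO libraries in KO-2124 alone (0.553 CPM). Ctrc was at 134 and 184 CPM in KO-2079 and KO-2126, below the 212 CPM of WT-2067, but at 11503 and 4701 CPM in KO-2070 and KO-2124. Higher too were 5 of 5 islet markers (444 to 5409 CPM in WT and 3401 to 8055 CPM in KO libraries). The islet value of 444 CPM was that of WT-2404, with WT-1860 and WT-2067 at 5409 and 2888 CPM. Endothelial markers were at 74.1 to 114 and 72.6 to 147 CPM (4 of 4 higher), and mesothelial markers at 19.6 to 33.1 and 23.5 to 48.6 CPM (3 of 4 higher). Adipocyte markers were at 0.820 to 8.88 CPM in WT and 3.04 to 11.9 CPM in KO libraries (4 of 4 higher). Of 2 mast cell markers tested, 1 was lower and 1 higher. In bulk tissue fewer cells of a type and less RNA per cell cannot be told apart, and the part of these cell types in the results was not tested. With the acinar share as a covariate, the difference between KO and WT was -0.71 (log2) for Egfr (unadjusted p = 0.0248, adjusted p = 0.846 in edgeR). It was -1.46 for Btc (unadjusted p = 0.00568, adjusted p = 0.831 in edgeR), and 0 of 13688 genes passed an adjusted p of 0.05. The same fit gave -0.71 for Hbegf (unadjusted p = 0.113 in edgeR) and -1.71 for Areg (unadjusted p = 0.0549 in edgeR). Erbb2 was then at -0.07. The acinar share averaged lower in WT than in Het and KO libraries. WT-2404 (11.9%) stood far below the other libraries (43.9% to 60.1%). The fit therefore cannot tell tissue composition apart from group or from that library.

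The genes whose levels were most like each member over the 10 libraries differed between members. Egfr was most like Pdpn (r = 0.988), Lmnb1 (0.986) and Pdgfrl (0.979), and Erbb2 most like the basement membrane collagen genes Col4a2 (0.981) and Col4a1 (0.980), then Lhfp (0.972). For Btc these were Tm4sf4 (0.971), Tspan12 (0.965) and Vil1 (0.964), the last of which encodes villin, a protein of epithelial brush borders. Hbegf was most like Golt1a (0.967), Col6a2 (0.965) and Gapt (0.957), Areg most like Nt5e (0.974), Acsm3 (0.967) and Sirt6 (0.965). For Tgfa the closest were Ppme1 (0.928), Chac1 (0.904) and Aars (0.897), and for Erbb3 they were Kdm1a (0.927), N6amt2 (0.860) and Pcdhga5 (0.833). Besides Prss2, Egf was closest to Gamt (0.993) and Klb (0.993). Within the family, Egfr correlated with Btc at r = 0.845, with Areg at 0.841 and with Hbegf at 0.822, but with Tgfa at -0.02. Leaving out WT-2404 gave 0.818, 0.860, 0.724 and -0.06 in the same order. All of these are descriptions over libraries that share their groups and the difference in acinar share, and carry no test.

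**Figure D3:**
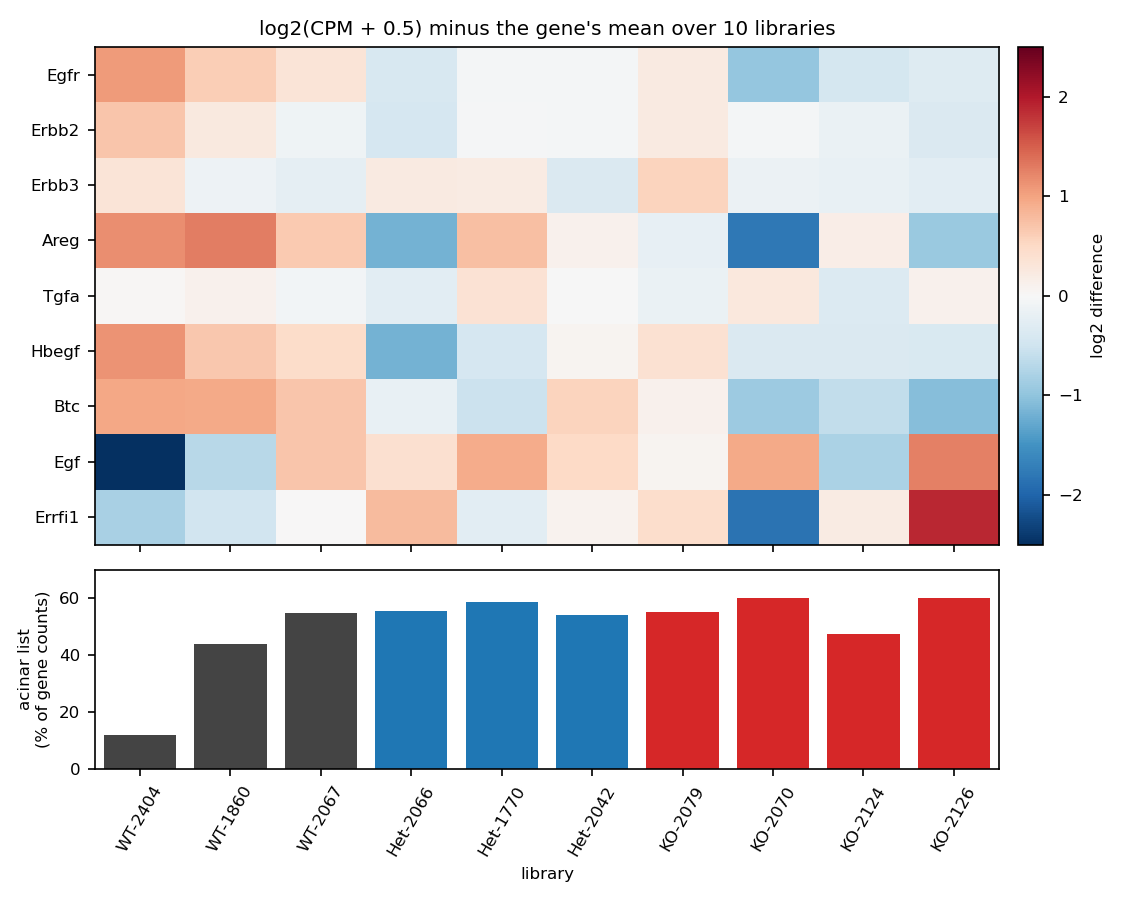
Colours give log2(CPM + 0.5) minus the gene's mean over the 10 libraries, 1 gene per line and 1 library per column, and the bars below give the share of the acinar list in the gene counts (percent, from 0). Egf is low where the bar is low, in WT-2404 at 11.9%, while Egfr, Areg, Hbegf and Btc are high there.

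The other genes of the pathway were counted from a list of 44, all in the table, of which 38 were tested. The 6 remaining genes of the family, Erbb4, Nrg1, Nrg2, Nrg3, Nrg4 and Epgn, were not tested, with 24, 18, 45, 2, 46 and 3 counts over all 10 libraries. In KO against WT, 25 of 38 were lower and 13 higher, with a median log2 fold change of -0.31 beside 0.03 over all genes, of which 6591 of 13688 were lower. No gene of the list passed an adjusted p of 0.05 in edgeR (0 of 38, smallest adjusted p = 0.116), and at an unadjusted p under 0.05 there were 10 lower and 2 higher, where 13.9% and 9.6% of all genes were. Het against WT gave 8 lower and 0 higher at that unadjusted p, where 11.6% of all genes were lower (median -0.32), and KO against Het gave 0. By role, the median in KO against WT was -0.47 for 4 genes of ligand shedding, -0.06 for 9 adaptors, -0.32 for 14 genes that remove or silence receptors and -0.32 for 11 genes of ERK feedback.

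Of these, 11 genes had separate WT and KO ranges and an unadjusted p under 0.05 in edgeR. Over all genes, 9.17% had WT above KO without overlap. Named by rule were the 8 of these 11 with the smallest p, and each had an adjusted p that missed 0.05. Adam17, the protease that sheds most of these ligands, was at 18.7 ± 5.53 CPM in WT (n = 3) and 10.8 ± 2.86 CPM in KO libraries (n = 4), a log2 fold change of -0.80 (SE 0.24). Among genes acting on the receptor, Ptpn1, a phosphatase that acts on EGFR and on the insulin receptor, was at 26.8 ± 7.76 and 13.5 ± 4.52 CPM (-0.98, SE 0.27). Sh3kbp1, which encodes a CBL partner in receptor uptake, was at 13.7 ± 6.12 and 3.91 ± 2.94 CPM (-1.75, SE 0.54). The LRIG family, membrane proteins of which LRIG1 promotes receptor breakdown, went both ways: Lrig1 was higher in KO libraries, at 27.2 ± 6.32 against 16.2 ± 4.85 CPM (0.75, SE 0.23), and Lrig3 lower, at 2.40 ± 0.529 against 4.20 ± 0.126 CPM (-0.79, SE 0.29). Among the targets of ERK signalling, Phlda1 was at 16.2 ± 6.05 and 5.53 ± 3.26 CPM in WT and KO (-1.50, SE 0.43). Dusp4, a phosphatase that acts on ERK, was at 3.06 ± 1.25 and 0.791 ± 0.711 CPM (-1.84, SE 0.64), with 1 and 3 counts in KO-2070 and KO-2126. The adaptor gene Gab1, which links receptors to PI3K, was higher in KO libraries at 14.4 ± 2.21 against 10.5 ± 0.741 CPM (0.45, SE 0.17). Scaled by library size alone, the signs of Lrig1 (-0.30) and Gab1 (-0.79) turned, while the median of all genes shifted to -1.17. Without WT-2404, Adam17 (-0.53, unadjusted p = 0.0549 in edgeR) and Dusp4 (-1.51, unadjusted p = 0.0564 in edgeR) no longer had an unadjusted p under 0.05. With the acinar share as a covariate, Ptpn1 (-0.58, unadjusted p = 0.0450 in edgeR) and Phlda1 (-1.16, unadjusted p = 0.0382 in edgeR) were still under 0.05 before adjustment, with edgeR adjusted p-values of 0.867 and 0.861. The other 6 were not, at -0.42 for Adam17, 0.47 for Lrig1, -1.12 for Sh3kbp1, -1.24 for Dusp4, -0.72 for Lrig3 and 0.39 for Gab1, with unadjusted p-values from 0.0652 to 0.104 in edgeR.

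**Figure D4:**
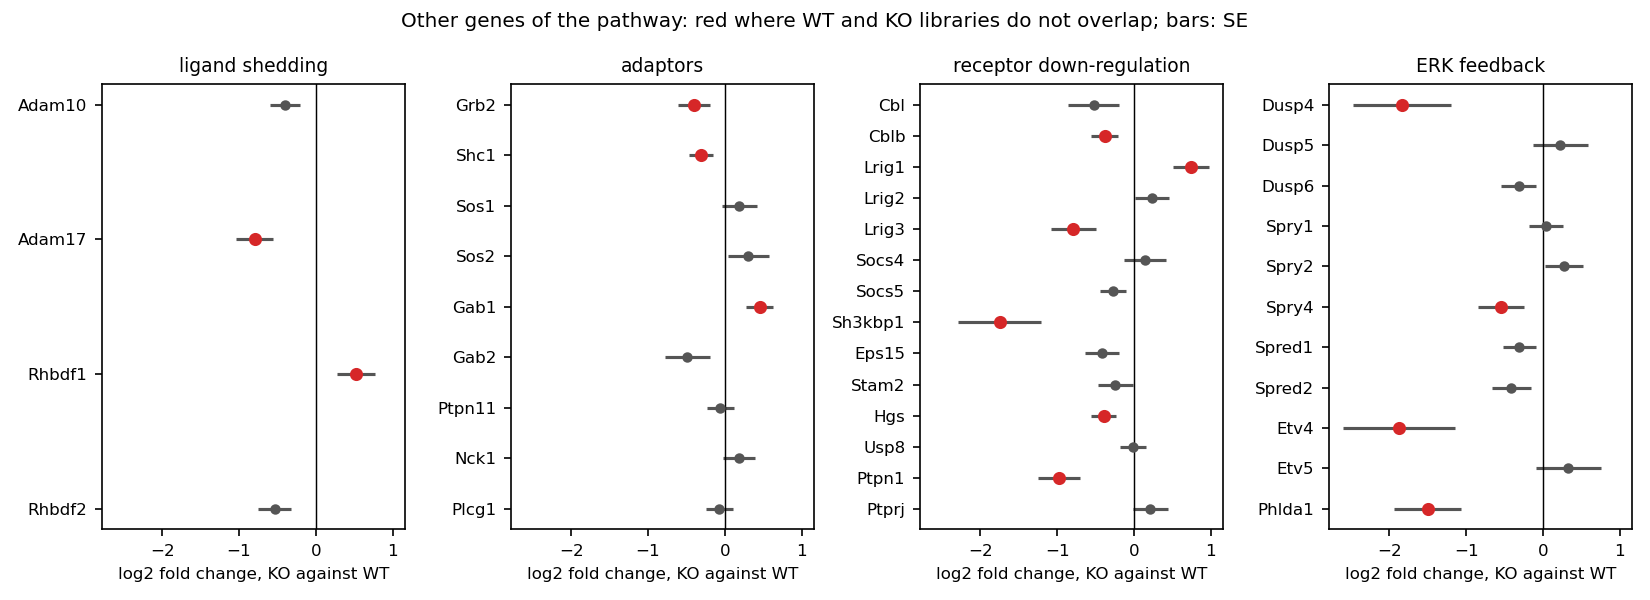
Each panel plots the KO against WT log2 fold changes (horizontal axis) of 1 role of the pathway list with bars for the SE, red where WT and KO libraries did not overlap. Red points lie on both sides of 0, and 9.17% of all genes had WT above KO without overlap. Farthest to the left are Etv4 (-1.87) and Dusp4 (-1.84). KO-2070 and KO-2126 held 0 and 3 counts of Etv4 and 1 and 3 counts of Dusp4. Those to the right are Lrig1 (0.75), Rhbdf1 (0.52) and Gab1 (0.45).

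Ereg, Areg and Btc lie within 328.4 kb of each other on chr5 (GENCODE M21, GRCm38), with Epgn just before them at chr5:91027464-91035215. The gap from Ereg to Areg is 45.95 kb and that from Areg to Btc 208.8 kb, and Btc lies on the opposite strand. Areg and Btc, which were tested, were both lower in KO libraries without overlap, as were 9.17% of all genes. Their levels correlated at r = 0.699 over the 10 libraries, and at 0.649 without WT-2404. Whether their place on the chromosome has a part in this was not tested. For Ereg and Epgn the counts were too low to compare.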

How the data were processed

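RNA sequencing of 10 pancreas tail pieces was analysed. The authors deposited a table of raw counts, in whole numbers, with gene symbols as names and a column for each mouse. Per the protocols in the labels, frozen tissue was pulverised and RNA was taken up with a column kit. Per the submitters' processing notes, DRAGEN, STAR and Cufflinks were used with build mm10. Their versions and roles, the counting tool, the annotation and the use of strand are not given in the sources used here, so overlapping genes are uncertain. A part of the genotype that all groups share, and any result that needs it, is not reported here.

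The 10 columns matched samples by genotype and mouse number. Of all counts, 2.59% to 8.71% lay outside genes and 0.101% to 0.584% were ambiguous, and these 2 entries stayed out of library sizes and tests. Libraries of a group differed beyond sampling noise (chi-square per degree of freedom 21.8 to 855), so each is 1 replicate. The labels give each library its own mouse number but no litter, batch or date. Intervals cover only the model's error, and limits at a count of 0 only counting error, since the reads carry no molecular identifiers and may be copies of 1 molecule.

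In R 4.3.3, 13688 genes passed edgeR 4.0.16 filterByExpr (minimum count 10) and were tested in 1 quasi-likelihood fit over all libraries with TMM factors (glmQLFit, robust, two-sided) and Benjamini-Hochberg adjustment at 0.05. SEs were taken from the F statistic, and log2 CPM were computed with a prior count of 2. The steps were tested on simulated data. Alternatives were DESeq2 1.42.0, RLE size factors, library size alone, scaling without the acinar enzyme genes, a filter of at least 1 count in any library, a fit of only the groups compared, the acinar share as a covariate and leaving out each library.

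The genes, the lists, the tests and the naming rule were chosen with earlier results of these data known. All 10 family genes are named. From the pathway list, up to 8 genes are named with the smallest unadjusted p in KO against WT among those under 0.05 with separate ranges, and for each tested family gene the 3 genes with the highest Pearson r. Positions and lengths are from GENCODE M21 (GRCm38), in which mm10 has the same coordinates, and promoters from RefSeq.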

Additional observations from a re-analysis of the deposited data

Results flagged for a closer look

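In the KO group, the only group with more than 3 libraries, 31 measures were checked for a library far from the other 3. A gap above 0.829 of the group's range was found for 3 of them, where about 1.55 would come up by chance, since chance picks out about 1 in 20. Erbb3 reached 20.5 CPM in KO-2079, and the other KO libraries lay from 11.4 to 12.4 CPM. Hbegf reached 4.08 CPM in KO-2079, and the others lay from 2.22 to 2.26 CPM. KO-2124 had 8.71% of its counts outside genes. KO-2079 was also the KO library with the highest Egfr (12.5 CPM), Erbb2 (12.1 CPM) and Btc (2.90 CPM), within the spread of its group by the same measure. With KO-2079 left out, Hbegf differed between KO and WT by a log2 fold change of -1.32 (SE 0.39) and Erbb3 by -0.22 (SE 0.23).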

How the results depend on the processing

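In each KO or Het comparison with WT, Egfr, Btc, Hbegf, Areg and Erbb2 kept their lower direction under every alternative run. The number of genes past an edgeR adjusted p of 0.05, which was 0 in all comparisons, became 1011 (KO against WT), 391 (Het against WT) and 1750 (Het and KO against WT) in DESeq2, and 2835, 3125 and 7109 with library size alone, where the median of all genes moved to -1.17, -1.36 and -1.26. With genes of at least 1 count, Het and KO against WT gave 8. Leaving out 1 library gave 0 to 1933, 0 to 1158 and 0 to 2830 genes, the highest without WT-2067, and for Het and KO against WT 50 without KO-2079 and 490 without KO-2124. Of the 9 family genes, 7 and 7 were lower at an unadjusted p under 0.05 with library size alone (KO and Het against WT). Of all 13688 genes, 6287 and 6981 were. With the acinar share as a covariate the family numbers were 2, 1 and 3, beside 465, 256 and 463 of all genes. Without 1 library the family numbers were 3 to 5, 1 to 4 and 3 to 5, with 1 in Het against WT without WT-2404, and 3 in Het and KO against WT without WT-2404 or without WT-1860. Of all genes, 5.29%, 3.61% and 6.33% were lower at that threshold without WT-2404. Without WT-2067 it was 2385, 2178 and 2710 of 14172 genes, beside 5, 4 and 5 of the family. Signs turned for some values, large ones among them. In KO against WT, Erbb3 was at -0.0083 in DESeq2, -0.0070 with RLE factors and -1.31 with library size alone, which also gave -0.038 for Errfi1, -0.30 for Lrig1 and -0.79 for Gab1. In Het against WT, library size alone gave -1.48 for Erbb3, -1.37 for Tgfa and -0.46 for Errfi1. The covariate gave -0.21 for Egf in KO, -0.062 for Egf in Het and -0.031 for Tgfa in Het. Without 1 library, Erbb3 ran from -0.22 to 0.22 in KO and -0.079 to 0.24 in Het, and Tgfa from -0.16 to 0.035 and -0.16 to 0.17. The causes were not tested. Library size alone shifts all genes together by construction. Where a WT library is left out, 2 remain. No paired analysis was possible because mouse numbers are not shared between groups. Ereg had too few counts to be tested.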

Other observations

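Ratios of counts within a library do not depend on how libraries are scaled, and 3 were computed after the values had been seen, with no test. Each sets a gene already seen to be lower over 1 already seen near level, so the ratios restate those differences and are no separate result. The ratio of Egfr to Erbb3 counts was 1.32, 1.32 and 1.16 in WT-2404, WT-1860 and WT-2067, 0.497 to 0.977 in Het and 0.426 to 0.743 in KO libraries, without overlap. A ratio above 1 does not mean more Egfr than Erbb3 transcripts. Per kb of merged exons Egfr was at 2.03, 1.47 and 1.19 CPM in these WT libraries, and Erbb3 at 2.88, 2.10 and 1.93. Btc to Tgfa stood at 0.664, 0.618 and 0.577 in WT, 0.154 to 0.496 in Het and 0.111 to 0.392 in KO libraries, again without overlap. Hbegf to Tgfa was 0.546 to 0.846 in WT and 0.152 to 0.385 in Het libraries, and the KO range of 0.221 to 0.550 met that of WT through KO-2079. These ratios compare the same pair of genes between libraries, not the levels of different genes.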
